A study of Arabidopsis thaliana with 16 samples.

Results

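The transcripts described here come from 7 genes of stress detoxification, out of 33602 genes in the count table: CYP81D11 (AT3G28740), ChlAKR (AT2G37770), NIT4 (AT5G22300), GSTU24 (AT1G17170), UGT74E2 (AT1G05680), UGT73C1 (AT2G36750) and AT4G01870. They were picked because their mean in wild type at 22 °C was above their mean in every mutant at 22 °C, so the contrast between genotypes at 22 °C is a description and carries no test. RNA was sequenced from whole seedlings of Arabidopsis thaliana (Col-0) at an age of 6 days, grown at 22 °C under continuous white light on 1/2 MS medium. Seedlings of the mutants mrg1 mrg2 pif4, mrg1 mrg2 and pif4 and of WT were compared, each after 3 h at 28 °C or kept at 22 °C. Each of the 8 groups had 2 libraries. MRG1 and MRG2 encode chromodomain readers of methylated histone H3, and PIF4 encodes a bHLH transcription factor of warmth-induced growth. The labels name the mutated genes but not the alleles, and separate cultures for the 2 libraries of each group are not stated. The p-values therefore measure only the spread between these libraries, which may be technical.

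Plants clear reactive or foreign compounds in steps that resemble drug metabolism. Cytochromes P450, reductases and hydrolases first change a reactive group, glutathione transferases and glucosyltransferases then attach glutathione or glucose, and transporters move the conjugates into the vacuole or out of the cell. Many of these genes are induced together by xenobiotics, oxidised lipids or hydrogen peroxide, partly through TGA factors of the bZIP family with the GRAS protein SCL14 and, for signals from impaired mitochondria, through membrane-bound NAC factors.

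Library totals ran from 7186066 to 11363353 counts, and levels are given as CPM, the count scaled to a common library size after TMM normalization. A floor of 3 counts corresponded to 0.253 to 0.433 CPM, the level that a count of 0 still allows, and like all read intervals given here it covers counting error only. MRG1 had 27 to 64 reads per library in the genotypes with mrg1 mrg2 and 168 to 225 in the others, and MRG2 had 2 to 8 against 63 to 99. PIF4 transcripts were not removed in the genotypes with pif4, at 77.5 to 84.9 CPM against 86.3 to 109.0 CPM in the others at 28 °C, and at 25.1 to 41.4 CPM against 29.6 to 41.5 CPM at 22 °C. PIF4 transcript level thus did not check the pif4 label. Root and green shoot markers were present in every group, with none of the 16 root markers and none of the 10 shoot markers at 0. In whole seedlings, fewer cells of a type and less RNA per cell cannot be told apart.

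The 7 genes lie apart on all 5 chromosomes. In the RefSeq annotation of TAIR10.1 they are CYP81D11 on chromosome 3 from 10788698 to 10790553, ChlAKR on chromosome 2 from 15834766 to 15837001, NIT4 on chromosome 5 from 7379187 to 7382025 and GSTU24 on chromosome 1 from 5869543 to 5870883. UGT74E2 lies on chromosome 1 from 1703002 to 1704838, UGT73C1 on chromosome 2 from 15410376 to 15412064 and AT4G01870 on chromosome 4 from 808376 to 810611. The exons of UGT74E2 shared 0.664% of their 50-base words with AT1G05675, those of UGT73C1 shared 0.366% with AT2G36760 and AT2G36800, and those of the other 5 shared none with the rest of the genome. CYP81D11 overlaps AT3G28730 on the opposite strand by 32 bases, and reads in those bases cannot be assigned because the strand setting of the counting is not stated.

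For each of the 7 genes, the 250 bases before the annotated start were searched on both strands for 3 kinds of motif. These were TGACG, the core bound by TGA factors, CACGTG, the G-box bound by bHLH factors such as PIF4, and both spaced forms of the mitochondrial dysfunction motif, which NAC factors bind. TGACG was present once each in 4 of the 7 windows, those of CYP81D11, ChlAKR, NIT4 and GSTU24, and in 18.6% of the windows of 27438 protein-coding genes. The GSTU24 match begins 169 bases before the start and lies in the far 144 bases of its window, which the gene AT1G17160 covers. CACGTG was present in the window of CYP81D11 only, and in 6.49% of all windows. Neither spaced form was in any of the 7 windows, against 0.74% and 0.467% of all windows. A match is a description of letters and not a bound site. The windows of GSTU24 and AT4G01870 run into the neighbouring genes AT1G17160 and AT4G01880, so the 3 other windows with a match are printed from RefSeq TAIR10.1, 5′ to 3′ on the strand of the gene, with TGACG and CACGTG in capitals, each of which here reads on the strand of the gene. They are chr3:10790554-10790803 on the minus strand for CYP81D11, chr2:15834516-15834765 on the plus strand for ChlAKR and chr5:7378937-7379186 on the plus strand for NIT4.
CYP81D11: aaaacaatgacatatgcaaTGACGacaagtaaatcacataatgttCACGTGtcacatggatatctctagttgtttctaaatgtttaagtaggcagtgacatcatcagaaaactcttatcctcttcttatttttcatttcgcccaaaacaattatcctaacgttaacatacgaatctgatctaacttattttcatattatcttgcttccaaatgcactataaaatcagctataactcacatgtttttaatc
ChlAKR: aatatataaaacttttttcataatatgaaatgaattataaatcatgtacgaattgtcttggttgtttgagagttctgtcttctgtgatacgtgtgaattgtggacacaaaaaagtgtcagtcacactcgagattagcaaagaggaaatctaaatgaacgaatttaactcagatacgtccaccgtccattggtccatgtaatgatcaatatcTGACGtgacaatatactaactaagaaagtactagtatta
NIT4: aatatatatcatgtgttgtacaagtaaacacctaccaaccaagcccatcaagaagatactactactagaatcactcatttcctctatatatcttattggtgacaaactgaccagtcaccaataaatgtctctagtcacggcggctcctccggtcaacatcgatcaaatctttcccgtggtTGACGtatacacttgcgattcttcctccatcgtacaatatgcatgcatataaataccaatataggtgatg
In CYP81D11 the TGACG match begins 231 bases before the start and the G-box 205 bases before it, and they do not overlap. The TGACG match lies 39 bases before the start in ChlAKR and 70 bases before it in NIT4.

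At 22 °C all 7 transcripts were lower in each of the 3 mutants than in WT, and in each mutant both libraries lay below both WT libraries for 7 of 7 genes. Over all 20075 genes tested, both mutant libraries lay below both WT libraries for 27.4% in mrg1 mrg2 pif4, 30% in mrg1 mrg2 and 25.8% in pif4. Nothing is read from these counts, because the genes were picked on this contrast. The summed level of the 7 transcripts was 61.4 and 67.7 CPM in the libraries of mrg1 mrg2 pif4, 75.7 and 78.6 CPM in mrg1 mrg2, 66.8 and 69.0 CPM in pif4, and 267 and 266 CPM in WT. The 3 mutants share the same 2 WT libraries as their comparison. A mean in WT above every mutant was found for 5729 genes (28.5%), and at least 2-fold above for 76 genes (0.379%), 5 of the 7 among them. Both WT libraries lay above all 6 mutant libraries for 2315 genes (11.5%), the 7 included. The rule had no minimum size. UGT73C1 and ChlAKR had the 2 largest ratios of WT to the highest mutant among all genes tested, at 8.66 and 5.57, while GSTU24 (1.71, rank 173) and NIT4 (1.48, rank 394) had the smallest of the 7. These ranks use the values of the rule and are a description. The highest mutant, mrg1 mrg2 pif4 for both UGT73C1 and ChlAKR, had only 12 and 18 reads. ChlAKR was among the genes tested only through its WT libraries at 22 °C.

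**Figure D1:**
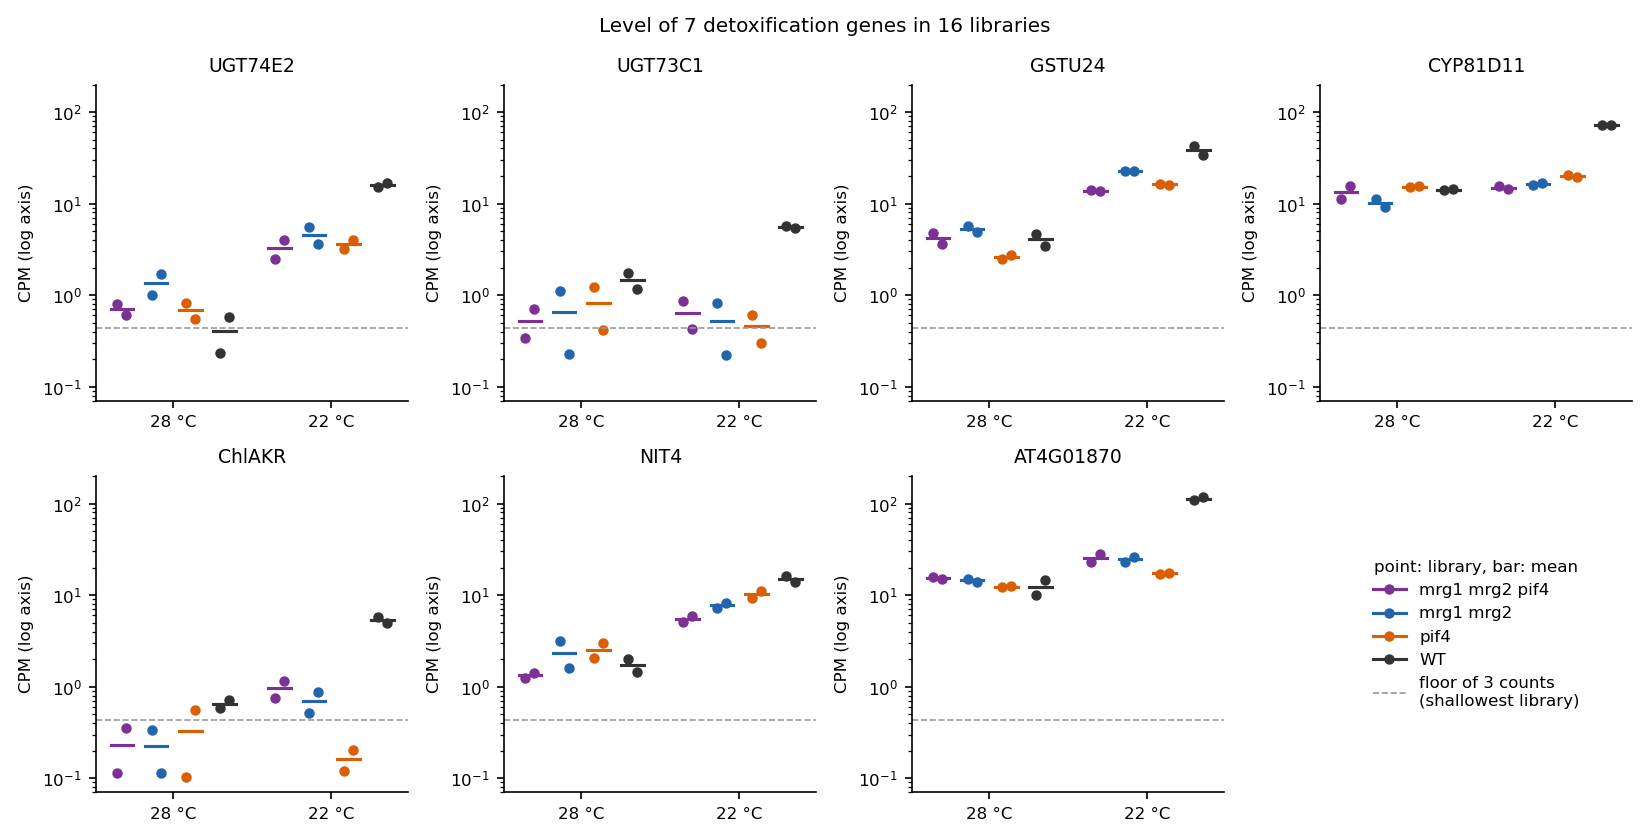
Level of each of the 7 genes in CPM on a log axis, one point per library and a bar at the mean of the 2 libraries, with mrg1 mrg2 pif4, mrg1 mrg2, pif4 and WT from left to right at 28 °C and then at 22 °C. The WT libraries at 22 °C stand above all others in every panel, and the dashed line marks 3 counts in the shallowest library (0.433 CPM).

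Among the enzymes that change a reactive group, CYP81D11, a cytochrome P450 induced by xenobiotics and by cis-jasmone, had 15.5 and 14.4 CPM at 22 °C in mrg1 mrg2 pif4, 15.9 and 16.6 CPM in mrg1 mrg2, 20.4 and 19.6 CPM in pif4, and 71.4 and 73.0 CPM in WT. The 4 genotypes did not overlap, with mrg1 mrg2 pif4 lowest and WT highest. ChlAKR, a plastid aldo-keto reductase of reactive carbonyls, had 0.749 and 1.17 CPM in mrg1 mrg2 pif4, 0.518 and 0.885 CPM in mrg1 mrg2, 0.121 and 0.202 CPM in pif4, and 5.73 and 4.94 CPM in WT. The pif4 libraries were below those of the other mutants, which overlapped. In pif4 the ChlAKR level rested on 3 reads against 97 in WT, a ratio of 3.11% with an exact binomial interval of 0.631% to 9.38%. NIT4, a nitrilase that hydrolyses the cyanide product β-cyanoalanine, had 5.03 and 5.94 CPM in mrg1 mrg2 pif4, 7.26 and 8.30 CPM in mrg1 mrg2, 9.22 and 11.1 CPM in pif4, and 16.0 and 14.01 CPM in WT. The order of the genotypes was as for CYP81D11, again without overlap.

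Among the conjugating enzymes, GSTU24, a tau class glutathione transferase active on xenobiotics, had 14.01 and 13.7 CPM in mrg1 mrg2 pif4 at 22 °C, 22.6 and 22.6 CPM in mrg1 mrg2, 16.3 and 16.2 CPM in pif4, and 43.0 and 34.3 CPM in WT. Here mrg1 mrg2 stood between WT and the other mutants. UGT74E2, a glucosyltransferase of the auxin precursor indole-3-butyric acid, had 2.46 and 4.03 CPM in mrg1 mrg2 pif4, 5.50 and 3.65 CPM in mrg1 mrg2, 3.16 and 4.04 CPM in pif4, and 15.1 and 16.9 CPM in WT. UGT73C1, a glucosyltransferase of cytokinins and of xenobiotics, had 0.856 and 0.425 CPM in mrg1 mrg2 pif4, 0.830 and 0.221 CPM in mrg1 mrg2, 0.607 and 0.303 CPM in pif4, and 5.73 and 5.36 CPM in WT. For both glucosyltransferases the mutants overlapped each other and were clear of WT. UGT73C1 had 12, 10 and 8 reads over the 2 libraries of mrg1 mrg2 pif4, mrg1 mrg2 and pif4, against 101 in WT, so its mutant level was at 11.6% (5.78% to 21.1%), 9.68% (4.51% to 18.6%) and 7.98% (3.35% to 16.3%) of WT. AT4G01870, annotated as a tolB-like protein, had 22.8 and 28.0 CPM in mrg1 mrg2 pif4, 23.1 and 26.3 CPM in mrg1 mrg2, 16.99 and 17.6 CPM in pif4, and 109.7 and 117 CPM in WT. Its pif4 libraries were lowest, while mrg1 mrg2 pif4 and mrg1 mrg2 overlapped.

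The log2 difference from WT at 22 °C had a median over the 7 genes of −2.27 in mrg1 mrg2 pif4, −2.15 in mrg1 mrg2 and −2.14 in pif4, with the median of all genes tested at 0.00208, 0.00395 and −0.00418. For CYP81D11 it was −2.27 ± 0.12, −2.15 ± 0.12 and −1.85 ± 0.11 (approximate SE) in the same order of mutants. Per kilobase of exon, the WT level at 22 °C was 50.7 ± 2.31 CPM for AT4G01870 and 45.2 ± 0.732 CPM for CYP81D11, then 32.2 ± 5.12 CPM for GSTU24, 9.11 ± 0.734 CPM for UGT74E2 and 6.14 ± 0.577 CPM for NIT4 (SD, n = 2). ChlAKR, at 3.59 ± 0.371 CPM per kilobase, and UGT73C1, at 3.28 ± 0.154 CPM per kilobase, were the lowest, and they differed by less than the spread of ChlAKR.

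All 7 genes passed the filter on low counts, but ChlAKR passed only through the WT libraries at 22 °C on which it was picked. Without those libraries 6 of the 7 passed, and UGT74E2 would also fail on the 28 °C libraries alone, where it had 2 to 15 reads. UGT73C1 and ChlAKR had 48 to 52 reads in each WT library at 22 °C and 1 to 15 reads in every other library, so their values outside that group carry a large counting error.

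The stated rule used no 28 °C library. The 7 genes were, however, chosen with earlier results of these data known, so the tests at 28 °C may not be independent of the choice. The summed level of the 7 transcripts at 28 °C was 34.3 and 37.0 CPM in mrg1 mrg2 pif4, 37.7 and 31.6 CPM in mrg1 mrg2, 33.9 and 35.3 CPM in pif4, and 33.5 and 36.5 CPM in WT. These ranges overlap throughout. CYP81D11 and AT4G01870 held most of each sum, at means of 14.3 and 12.4 CPM in WT, so the sums say little of the other genes. ChlAKR had 1 to 5 reads in each 28 °C library, too few for its tests there to bear on a difference, and it is left out of the counts that follow. Of 42 tests of the other genes at 28 °C (6 genes in 7 comparisons), 3 passed an adjusted p of 0.05 with edgeR's quasi-likelihood test. Over all genes tested, 1.59% to 14.7% passed in the 7 comparisons, so nothing particular to the 6 genes is read from this count.

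Against WT at 28 °C, 0 of these 6 genes changed in mrg1 mrg2 pif4 (11.8% of all genes tested changed), 1 of 6 in mrg1 mrg2 (14.1%) and 0 of 6 in pif4 (1.59%). At an unadjusted p under 0.05 the counts with edgeR were 2, 2 and 1, and with DESeq2 none of the 6 passed the adjusted threshold in any of these 3 comparisons. CYP81D11 had 11.2 and 15.5 CPM in mrg1 mrg2 pif4, 11.3 and 9.19 CPM in mrg1 mrg2, 15.02 and 15.4 CPM in pif4, and 14.1 and 14.4 CPM in WT. Both mrg1 mrg2 libraries were below both WT libraries. CYP81D11 fell in mrg1 mrg2 by 0.46 ± 0.15 on the log2 scale (adjusted p = 0.0276). The call was lost with DESeq2 (adjusted p = 0.0951), in a fit of the 2 groups alone (0.0868), without WT replicate 1 (0.0982) or 2 (0.126) at 28 °C and without mrg1 mrg2 replicate 2 at 28 °C (0.240), while the log2 difference stayed between −0.33 and −0.48 in these 5 fits.

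UGT74E2 at 28 °C had 0.798 and 0.612 CPM in mrg1 mrg2 pif4, 1.01 and 1.70 CPM in mrg1 mrg2, 0.823 and 0.552 CPM in pif4, and 0.235 and 0.577 CPM in WT. The WT level rested on 6 reads in all and overlapped that of pif4, with 12 reads, while both mrg1 mrg2 libraries lay above both WT libraries. The log2 difference of mrg1 mrg2 from WT was 1.72 ± 0.65 with a 95% interval of 0.39 to 3.04, and it did not pass (adjusted p = 0.0743 with edgeR). In mrg1 mrg2 pif4 and pif4 it was 0.81 (adjusted p = 0.56) and 0.84 (0.772), by the same test.

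GSTU24 at 28 °C had 4.79 and 3.58 CPM in mrg1 mrg2 pif4, 5.74 and 4.88 CPM in mrg1 mrg2, 2.47 and 2.76 CPM in pif4, and 4.70 and 3.46 CPM in WT. The pif4 libraries were the lowest of the 8, and mrg1 mrg2 the highest. Between mrg1 mrg2 and pif4, 2 of the 6 genes differed (14.7% of all genes tested). GSTU24 was higher in mrg1 mrg2 by 1.04 ± 0.25 (adjusted p = 0.00243) and CYP81D11 was lower by 0.56 ± 0.14 on the log2 scale (adjusted p = 0.00534). The GSTU24 call was lost without replicate 1 of mrg1 mrg2 (0.0571) or of pif4 (0.0546) at 28 °C, and the CYP81D11 call without replicate 2 of mrg1 mrg2 at 28 °C (0.103), all by the same test. None of the 6 passed for mrg1 mrg2 pif4 against mrg1 mrg2 (9.95% of all genes) or against pif4 (9.42%), nor for the departure from additive effects at 28 °C (3.72%). The counts at an unadjusted p under 0.05 with edgeR were 2, 3 and 1 in these 3 comparisons, and DESeq2 called 0 in each. Without mrg1 mrg2 pif4 replicate 1 at 28 °C, CYP81D11 passed against mrg1 mrg2 at 0.58 (adjusted p = 0.0148 with edgeR), where it had 0.38 (0.0828) with all libraries.

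The remaining genes showed no call against WT at 28 °C, and their intervals are wide where reads are few. AT4G01870 had 15.8 and 14.9 CPM in mrg1 mrg2 pif4, 15.1 and 13.8 CPM in mrg1 mrg2, 12.2 and 12.5 CPM in pif4, and 10.11 and 14.7 CPM in WT. Its log2 difference from WT was 0.32 (interval 0.03 to 0.61) in mrg1 mrg2 pif4, 0.24 (−0.04 to 0.53) in mrg1 mrg2 and 0.01 (−0.29 to 0.32) in pif4. Without WT replicate 2 at 28 °C, the first of these passed at 0.59 (adjusted p = 0.0204) and the second at 0.53 (0.0426). NIT4 had 1.25 and 1.40 CPM in mrg1 mrg2 pif4, 3.12 and 1.59 CPM in mrg1 mrg2, 2.06 and 3.03 CPM in pif4, and 2.00 and 1.44 CPM in WT. The log2 difference of NIT4 in mrg1 mrg2 pif4 from WT was −0.38 (−1.26 to 0.49). UGT73C1 ranged from 0.227 to 1.76 CPM over the 8 libraries and ChlAKR from 0.103 to 0.721 CPM. For UGT73C1 the log2 difference from WT was −1.43 (−2.70 to −0.16) in mrg1 mrg2 pif4, −1.03 (−2.21 to 0.16) in mrg1 mrg2 and −0.75 (−1.93 to 0.44) in pif4, at 11 to 23 reads per group. For ChlAKR it was −1.34, −1.37 and −1.10 at 5 reads in each mutant and 10 in WT, with intervals that reach from −3.04 to 0.58.

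**Figure D2:**
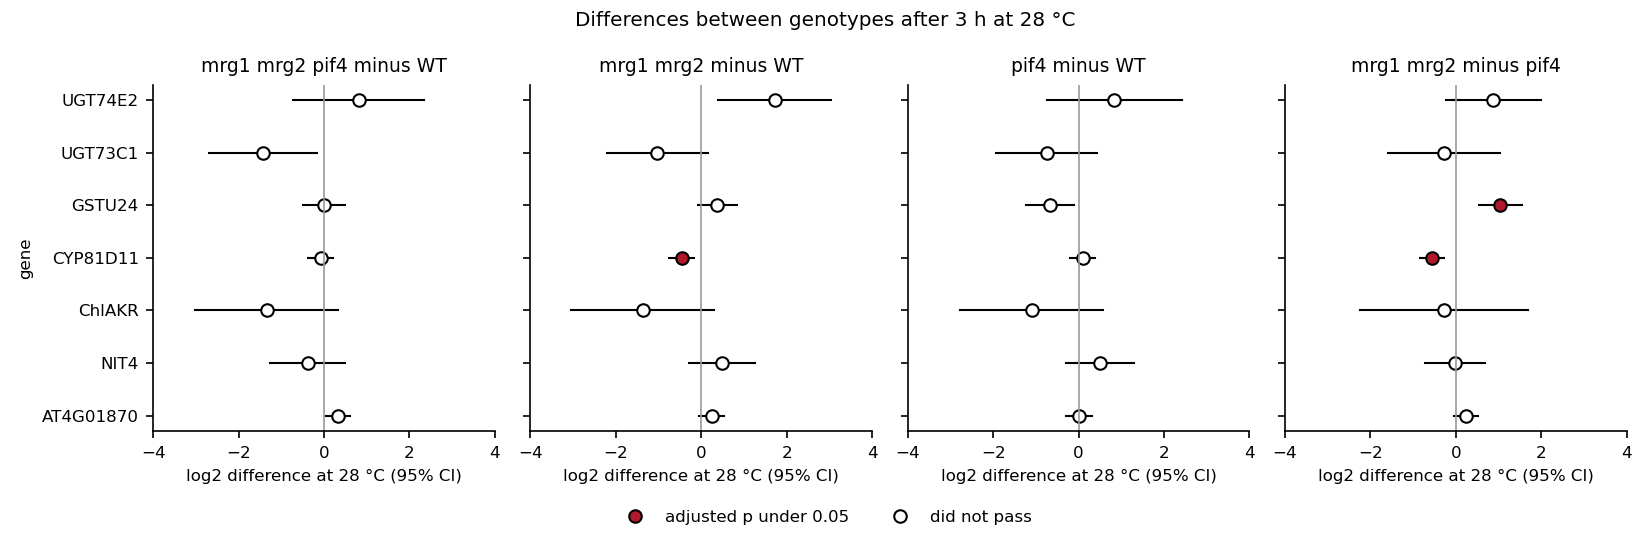
Log2 difference at 28 °C with its 95% interval for each of the 7 genes in 4 comparisons, mrg1 mrg2 pif4 minus WT, mrg1 mrg2 minus WT, pif4 minus WT and mrg1 mrg2 minus pif4. Filled points passed an adjusted p of 0.05: CYP81D11 in mrg1 mrg2 against WT, and GSTU24 and CYP81D11 in mrg1 mrg2 against pif4. ChlAKR is drawn from 1 to 5 reads per library and is left out of the counts of calls.

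The change after 3 h at 28 °C within a genotype uses the 22 °C libraries on which the genes were picked, so it too is a description. In WT all 7 transcripts were lower at 28 °C than at 22 °C with no overlap (30.1% of all genes tested had both 28 °C libraries below both 22 °C libraries), by a median of −3.09 on the log2 scale. The lower level in both 28 °C libraries was seen for 5 of 7 genes in mrg1 mrg2 pif4 (30.9% of all genes), 6 of 7 in mrg1 mrg2 (31.4%) and 5 of 7 in pif4 (29%), with medians of −1.75, −1.48 and −0.48. UGT74E2 averaged 0.406 ± 0.242 CPM at 28 °C and 16.0 ± 1.29 CPM at 22 °C in WT, a log2 change of −5.32 ± 0.39, and it had the largest change of the 7 in WT. In the mutants its change was −2.21 ± 0.44 in mrg1 mrg2 pif4, −1.80 ± 0.35 in mrg1 mrg2 and −2.34 ± 0.45 in pif4.

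GSTU24 and NIT4 were lower at 28 °C without overlap in all 4 genotypes. GSTU24 averaged 4.19 ± 0.852 CPM at 28 °C and 13.9 ± 0.226 CPM at 22 °C in mrg1 mrg2 pif4, 5.31 ± 0.607 and 22.6 ± 0.0203 CPM in mrg1 mrg2, 2.61 ± 0.205 and 16.2 ± 0.0681 CPM in pif4, and 4.08 ± 0.876 and 38.7 ± 6.15 CPM in WT. The log2 change of NIT4 was −2.03 in mrg1 mrg2 pif4, −1.66 in mrg1 mrg2, −2.04 in pif4 and −3.09 in WT. For CYP81D11 and AT4G01870 the log2 changes in the mutants lay nearer to 0, from −0.15 to −0.77. CYP81D11 averaged 13.3 ± 3.04 CPM at 28 °C and 14.97 ± 0.759 CPM at 22 °C in mrg1 mrg2 pif4, 10.3 ± 1.495 and 16.2 ± 0.520 CPM in mrg1 mrg2, 15.2 ± 0.302 and 19.996 ± 0.557 CPM in pif4, and 14.3 ± 0.227 and 72.2 ± 1.17 CPM in WT. In mrg1 mrg2 pif4 the CYP81D11 libraries of the 2 temperatures overlapped, with a log2 change of −0.15 ± 0.14. AT4G01870 had log2 changes of −0.73 in mrg1 mrg2 pif4, −0.77 in mrg1 mrg2, −0.48 in pif4 and −3.21 in WT. UGT73C1 and ChlAKR had log2 changes in the mutants between −1.90 and 0.98 with SE of 0.71 to 1.09, from few reads.

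**Figure D3:**
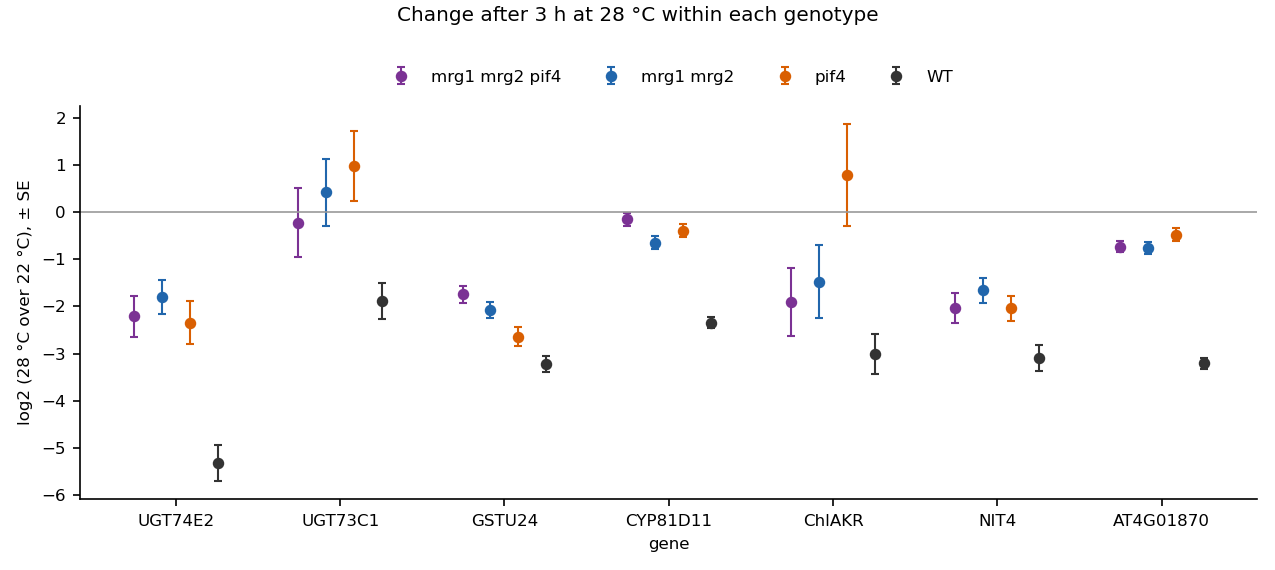
Log2 change of each gene after 3 h at 28 °C against 22 °C, with its approximate SE, in mrg1 mrg2 pif4, mrg1 mrg2, pif4 and WT from left to right. The WT value is the lowest of the 4 for each of the 7 genes, between −1.89 for UGT73C1 and −5.32 for UGT74E2.

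The difference between the warm change of a mutant and that of WT ran over the 7 genes from 1.06 to 3.11 in mrg1 mrg2 pif4, from 1.14 to 3.52 in mrg1 mrg2 and from 0.58 to 3.797 in pif4 on the log2 scale. It contains the WT 22 °C libraries and is given as a description.

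Across the 16 libraries the 21 pairs of the 7 genes had Pearson correlations of log2 CPM from 0.344 to 0.933, with a median of 0.744. The points share the library, its depth and the 2 WT libraries at 22 °C. Without those 2 libraries (14 libraries left, still of both temperatures) the range was −0.492 to 0.901 with a median of 0.294. UGT73C1 then had −0.492 with UGT74E2, −0.43 with AT4G01870, −0.338 with GSTU24, −0.296 with NIT4, 0.0465 with CYP81D11 and 0.115 with ChlAKR. Without them the values were 0.901 between UGT74E2 and GSTU24, 0.879 between GSTU24 and NIT4 and 0.840 between UGT74E2 and NIT4. For AT4G01870 they were 0.846 with UGT74E2, 0.823 with GSTU24, 0.66 with NIT4 and 0.279 with CYP81D11, and the last of these pairs had 0.903 over all 16 libraries.

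By the Pearson correlation over 16 libraries with the mean standardised log2 CPM of the 7 genes, the 10 most alike other genes with at least 5 CPM in their highest group were GRP3S (0.974), OPR1 (0.968), AT5G16980 (0.965), UGT73B2 (0.965), CP1 (0.964), ZIFL1 (0.954), AT5G17000 (0.953), AT4G13180 (0.953), NAC102 (0.951) and AT1G76520 (0.948). OPR1 is an oxophytodienoate reductase, UGT73B2 a flavonoid glucosyltransferase, ZIFL1 a facilitator family transporter, CP1 a calcium-binding protein and NAC102 a NAC transcription factor. OPR1 averaged 67.1, 83.6 and 81.2 CPM in mrg1 mrg2 pif4, mrg1 mrg2 and pif4 at 22 °C, and 208 CPM in WT. Without the WT libraries at 22 °C, the correlations of these 10 genes were 0.766 to 0.885. None of the 10 was then among the 10 most alike, and their ranks were 353 to 1509.

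Other genes of the pathway were taken from lists by enzyme family or role, which held 110 genes that are not among the 7, 94 of them tested. The lists were chosen with earlier results of these data known. OPR1, UGT73B2, ZIFL1 and NAC102 are in them and also among the most alike genes above. Counts over the lists are therefore no independent check of the 7 genes. At 22 °C 4 of the 94 rose and 41 fell in mrg1 mrg2 pif4 against WT, while 7.87% of all genes tested rose and 7.54% fell. In mrg1 mrg2 6 rose and 37 fell (12.3% and 12.2% of all genes), and in pif4 0 rose and 42 fell (5.8% and 5.05%). With edgeR at an unadjusted p under 0.05, 0 of the 94 were higher in pif4. DESeq2 called 2 higher and 38 lower in mrg1 mrg2 pif4, 3 and 31 in mrg1 mrg2, and 0 and 33 in pif4. In WT 3 of the 94 rose and 51 fell at 28 °C against 22 °C, where 13.3% and 13.7% of all genes did. These 4 comparisons all contain the 2 WT libraries at 22 °C. In the mutants at 28 °C against 22 °C, 13 rose and 21 fell in mrg1 mrg2 pif4 (12.9% and 14.3% of all genes), 12 were higher and 32 lower in mrg1 mrg2 (12.8% and 14.1%), and 12 rose and 29 fell in pif4 (13.2% and 12.4%).

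Glucosyltransferases of the UGT73, UGT74 and UGT75 families attach glucose to hormones, flavonoids and xenobiotics. Among 14 tested, 9 fell in mrg1 mrg2 pif4 (7.54% of all genes fell), 9 in mrg1 mrg2 (12.2%) and 10 in pif4 (5.05%) against WT at 22 °C. None rose by edgeR (0 at an unadjusted p under 0.05, 0 with DESeq2), where 7.87%, 12.3% and 5.8% of all genes did. UGT75B1 averaged 20.6 ± 1.99 CPM in mrg1 mrg2 pif4, 25.4 ± 0.195 CPM in mrg1 mrg2 and 18.0 ± 1.10 CPM in pif4, against 73.7 ± 1.99 CPM in WT (SD, n = 2). Its log2 differences were −1.84 ± 0.10, −1.54 ± 0.10 and −2.03 ± 0.10, with adjusted p of 1.18e-16, 6.11e-15 and 1.9e-17. DOGT1, a glucosyltransferase of the fungal toxin deoxynivalenol, averaged 9.69 ± 0.701, 11.3 ± 0.596 and 9.42 ± 1.82 CPM in the 3 mutants and 30.2 ± 1.06 CPM in WT, and it fell in each. UGT73B2 fell by 1.34, 1.08 and 1.32 on the log2 scale.

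Among 22 other tau class glutathione transferases, 2 rose and 9 fell in mrg1 mrg2 pif4 (7.87% and 7.54% of all genes), and 3 rose and 6 fell in mrg1 mrg2 (12.3% and 12.2%). In pif4 0 rose and 10 fell (5.8% and 5.05%), and 0 were higher at an unadjusted p under 0.05 with edgeR. DESeq2 called 0 higher and 8 lower, 1 higher and 4 lower, and 0 higher and 8 lower in the same order. GSTU19 averaged 314 ± 14.5, 319 ± 11.7 and 356 ± 3.54 CPM in the mutants and 483 ± 4.47 CPM in WT. GSTU7 averaged 19.2 ± 0.650, 24.7 ± 1.36 and 18.3 ± 0.603 CPM in the mutants and 46.1 ± 3.33 CPM in WT. Both fell in each mutant.

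Of 6 tested CYP81D genes, none passed with edgeR in mrg1 mrg2 pif4 (1 at an unadjusted p under 0.05) or mrg1 mrg2 (3), and DESeq2 called none in any mutant. In pif4 1 fell (5.05% of all genes), CYP81D8, at 1.10 ± 0.871 CPM against 3.10 ± 0.421 CPM in WT (log2 −1.42 ± 0.43, adjusted p = 0.0241 with edgeR). CYP81D5 averaged 19.6 ± 0.407 CPM in mrg1 mrg2 pif4, 21.1 ± 2.36 CPM in mrg1 mrg2 and 14.01 ± 0.0952 CPM in pif4, against 17.5 ± 0.0817 CPM in WT, with no call at 22 °C.

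Among 9 carbonyl reductases, 6 fell in mrg1 mrg2 pif4 (7.54% of all genes), 5 in mrg1 mrg2 (12.2%) and 5 in pif4 (5.05%). In mrg1 mrg2 1 rose (12.3% of all genes). AER, an alkenal reductase, averaged 60.2 ± 1.18, 49.2 ± 4.78 and 45.9 ± 0.698 CPM in the 3 mutants and 107 ± 7.68 CPM in WT. AKR4C8, an aldo-keto reductase related to ChlAKR, averaged 13.04 ± 2.87, 11.8 ± 0.391 and 8.45 ± 0.623 CPM in the mutants and 21.4 ± 0.810 CPM in WT, and like AER and OPR1 it fell in each. Of 4 tested genes of nitrile and cyanide handling, 1 rose and 2 fell in mrg1 mrg2 pif4 (7.87% and 7.54% of all genes). In mrg1 mrg2 1 rose and 1 fell (12.3% and 12.2%), and in pif4 1 fell (5.05%). NIT2 rose to 21.5 ± 0.486 CPM in mrg1 mrg2 pif4 and 24.9 ± 0.899 CPM in mrg1 mrg2, against 13.2 ± 0.240 CPM in WT.

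Of 5 tested transporters 4 fell in mrg1 mrg2 pif4 (7.54% of all genes), 4 in mrg1 mrg2 (12.2%) and 3 in pif4 (5.05%). These shares, with 7.87%, 12.3% and 5.8% of all genes rising, also hold for the next 3 lists. The vacuolar pump of glutathione conjugates ABCC2 fell in each, at 85.3 ± 9.18, 101 ± 2.07 and 122 ± 4.34 CPM in the mutants and 171 ± 10.4 CPM in WT. Of 15 regulators 5, 6 and 5 fell in the same order and none rose with edgeR (0 at an unadjusted p under 0.05, 0 with DESeq2). The named ones were all NAC factors: NAC102 averaged 32.4 ± 1.61, 35.8 ± 4.37 and 32.8 ± 2.14 CPM in the mutants and 67.4 ± 3.99 CPM in WT, and ATAF1, ATAF2 and NAC053 fell in each mutant by 0.65 to 0.89 on the log2 scale. Of 8 other tested genes of the mitochondrial dysfunction list, to which UGT74E2 also belongs, 1 fell in mrg1 mrg2 pif4, 1 rose in mrg1 mrg2 and 2 fell in pif4 with edgeR, and DESeq2 called 1, 0 and 1. AOX1A, the alternative oxidase, averaged 32.3 ± 1.68, 38.6 ± 7.23 and 24.5 ± 0.831 CPM in the mutants and 39.8 ± 0.879 CPM in WT, and it fell in pif4 (adjusted p = 2.47e-05 with edgeR). Of 12 genes of reactive oxygen handling, 1 rose and 5 fell, 0 rose and 6 fell, and 0 rose and 5 fell in the 3 mutants (with edgeR at an unadjusted p under 0.05, 1 was higher in mrg1 mrg2 and 0 in pif4, and DESeq2 called 0 higher in both), with the catalase CAT2 at 700.0 ± 8.01, 964 ± 22.6 and 843 ± 14.3 CPM in the mutants against 1198 ± 14.5 CPM in WT.

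**Figure D4:**
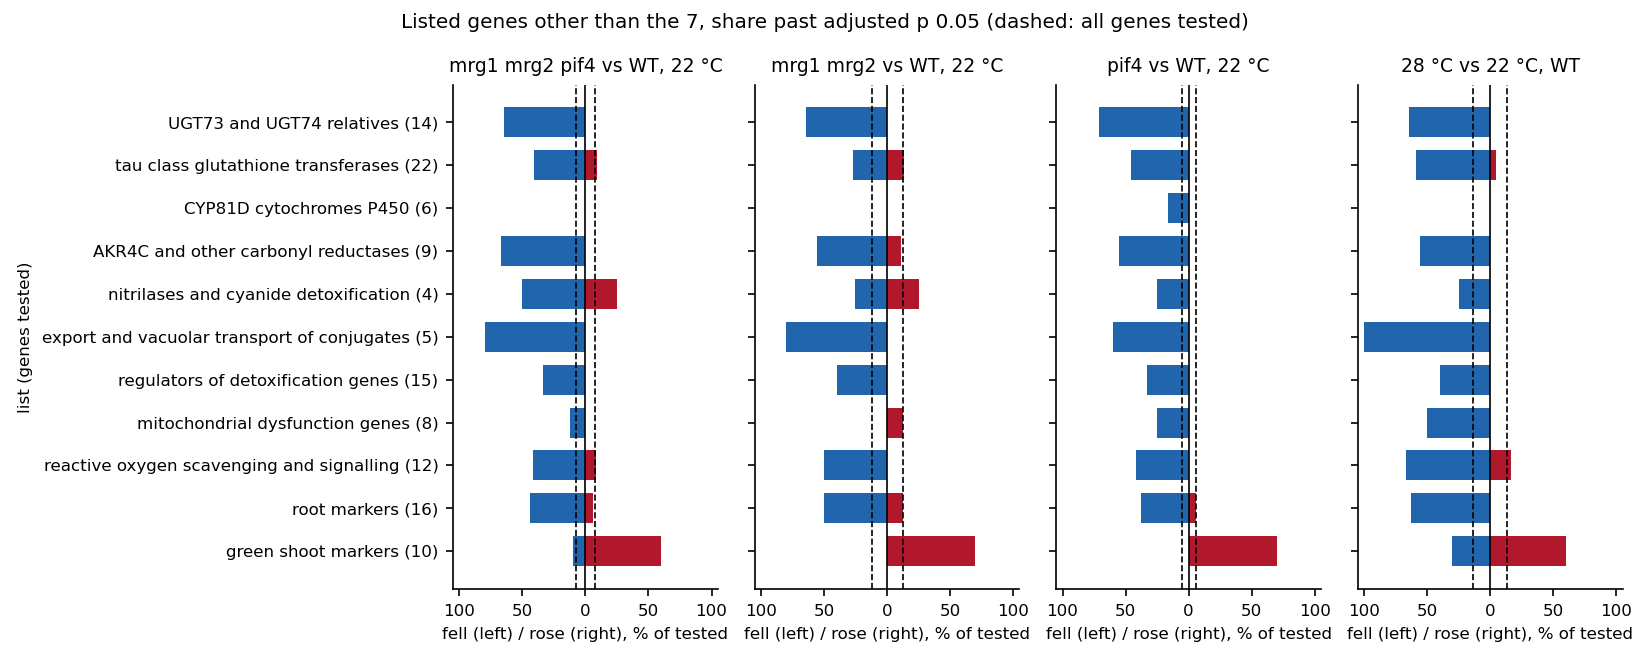
Share of the tested genes of each list that fell (blue, left) or rose (red, right) at an adjusted p under 0.05 in mrg1 mrg2 pif4, mrg1 mrg2 and pif4 against WT at 22 °C and in WT at 28 °C against 22 °C. The dashed lines give the same shares over all 20075 genes tested, and the 7 genes are left out of the lists.

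The summed level of 16 root markers was 2973 and 2897 CPM in mrg1 mrg2 pif4, 2558 and 2640 CPM in mrg1 mrg2, 2575 and 2545 CPM in pif4, and 3375 and 3442 CPM in WT at 22 °C. At 28 °C it was 2177 to 2656 CPM over the 4 genotypes. Of the 16, 1 rose and 7 fell in mrg1 mrg2 pif4 against WT at 22 °C (7.87% and 7.54% of all genes tested). In mrg1 mrg2 2 rose and 8 fell (12.3% and 12.2%), and in pif4 1 rose and 6 fell (5.8% and 5.05%). In WT 0 rose and 10 fell at 28 °C against 22 °C (13.3% and 13.7% of all genes), with 0 higher at an unadjusted p under 0.05 with edgeR, and 0 with DESeq2. At 22 °C DESeq2 called 1 higher and 5 lower in mrg1 mrg2 pif4, 0 and 8 in mrg1 mrg2 and 0 and 5 in pif4. The 10 green shoot markers summed at 22 °C to 35406 and 34896 CPM in mrg1 mrg2 pif4, 35519 and 35148 CPM in mrg1 mrg2, 38973 and 38550 CPM in pif4, and 31969 and 31469 CPM in WT. Of these 10, 6 rose and 1 fell in mrg1 mrg2 pif4 against WT at 22 °C with edgeR (7.87% and 7.54% of all genes). In mrg1 mrg2 7 rose and 0 fell (12.3% and 12.2%), and in pif4 7 rose and 0 fell (5.8% and 5.05%). In these last 2 mutants 0 were lower at an unadjusted p under 0.05 with edgeR, and 0 with DESeq2. At 28 °C they summed to 30942 and 30602 CPM in mrg1 mrg2 pif4, below WT at 22 °C, and to 34061 and 36325 CPM in mrg1 mrg2, 40029 and 40987 CPM in pif4, and 36378 and 36216 CPM in WT. The root sum was thus highest in WT at 22 °C among the 8 groups, while the lowest green shoot sum was that of mrg1 mrg2 pif4 at 28 °C. The part of tissue proportions in the levels of the 7 genes was not tested.

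Of the 94 listed genes at 28 °C, 9 rose and 12 fell in mrg1 mrg2 pif4 against WT (5.3% and 6.55% of all genes), 13 were higher and 12 lower in mrg1 mrg2 (6.69% and 7.4%), and 0 rose and 3 fell in pif4 (1.17% and 0.423%), all with edgeR. DESeq2 called 3 higher and 11 lower, 8 higher and 11 lower, and 1 higher and 2 lower in the same order. The 3 in pif4 were NIT1, CAT2 and CSD2. For pif4 the count of higher genes was 7 at an unadjusted p under 0.05 with edgeR. The sum of both directions was 12 in mrg1 mrg2 pif4 without WT replicate 1 or mrg1 mrg2 pif4 replicate 2, 15 in mrg1 mrg2 without WT replicate 1 or either mrg1 mrg2 library, and 1 in pif4 without WT replicate 2 or pif4 replicate 1, all at 28 °C. UGT73B5, another glucosyltransferase, rose by 0.82 ± 0.18 in mrg1 mrg2 pif4 (adjusted p = 0.00134) and by 0.74 ± 0.18 in mrg1 mrg2 (0.00367) with edgeR. GSTU20 fell by 0.64 in mrg1 mrg2 pif4 and rose by 0.30 in mrg1 mrg2.

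The warm change of the listed genes, whose lists were chosen with earlier results of these data known, was tested against that of WT. It was higher than in WT for 25 and lower for 1 of the 94 in mrg1 mrg2 pif4 (2.37% and 3.47% of all genes), higher for 16 and lower for 0 in mrg1 mrg2 (2.37% and 2.44%), and higher for 28 and lower for 1 in pif4 (2.34% and 1.76%). In mrg1 mrg2, 2 were lower at an unadjusted p under 0.05 with edgeR and 0 with DESeq2. Of the 14 glucosyltransferases it was higher for 7, 5 and 7. In pif4 the total of 29 dropped to 19 without WT replicate 1 or pif4 replicate 2 at 22 °C and to 18 without WT replicate 2 at 28 °C. UGT75B1 rose at 28 °C in mrg1 mrg2 pif4 (31.1 ± 2.80 CPM at 28 °C and 20.6 ± 1.99 CPM at 22 °C), in mrg1 mrg2 (34.9 ± 0.475 and 25.4 ± 0.195 CPM) and in pif4 (30.5 ± 2.35 and 18.0 ± 1.10 CPM), while it fell in WT (33.04 ± 3.85 and 73.7 ± 1.99 CPM).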

How the data were processed

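Per the submitters' processing notes, the authors used cutadapt, HISAT2, SAMtools and featureCounts with the TAIR10 genome. Not given in the sources used here: versions, parameters and the strand setting. The deposited file gives raw, not normalized, counts of 16 libraries by gene. Genes with too few counts were removed with filterByExpr (minimum count 10, minimum total 15), leaving 20075 of 33602. Counts were scaled by TMM and fitted in edgeR 4.0.16 (R 4.3.3) with the quasi-likelihood test over 8 groups, with Benjamini-Hochberg adjustment across the genes tested. The SE of a log2 difference was taken from its size and the F statistic and is approximate. Coordinates, symbols and sequences come from RefSeq TAIR10.1, in which 32835 IDs matched. The 7 genes and the gene lists were chosen with earlier results of these data known. Of each list, up to 4 genes per comparison were named, by smallest p. Alternatives were other size factors, DESeq2 1.42.0, no or a stricter filter, the replicate number as a block, the compared groups alone, and each library left out. The calculations were tested on simulated data.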

Additional observations from a re-analysis of the deposited data

Results flagged for a closer look

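The warm change of listed detoxification genes differed from that of WT by the interaction test of edgeR, with p-values adjusted over all genes tested. In mrg1 mrg2 pif4 it differed for 26 of 94 listed genes, in mrg1 mrg2 for 16 and in pif4 for 29. Over all genes tested, it was higher for 2.37% and lower for 3.47% in mrg1 mrg2 pif4. The shares were 2.37% and 2.44% in mrg1 mrg2, and 2.34% and 1.76% in pif4. In mrg1 mrg2 pif4 the log2 difference between warm changes was 1.75 for UGT75B1, 1.70 for UGT73B5, 1.18 for OPR1 and 0.997 for AER. In mrg1 mrg2 it was 1.62 for UGT75B1, 1.37 for DOGT1, 1.21 for AER and 1.04 for OPR1. In pif4 it was 1.91 for UGT75B1, 1.37 for OPR1, 1.33 for AER and 1.21 for GSTU7. All of these differences share the 4 WT libraries, and the lists were chosen with earlier results of these data known.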

How the results depend on the processing

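With ChlAKR left out, the count of the other 6 genes called in mrg1 mrg2 against WT at 28 °C was 1 (14.1% of all genes tested). It became 0 with DESeq2 and 0 with the compared groups alone. The log2 difference of CYP81D11 was −0.33 without mrg1 mrg2 replicate 2 at 28 °C, against −0.46 with all libraries. With single libraries left out, the same count was 0 to 1 for mrg1 mrg2 pif4 against WT, 0 to 1 for mrg1 mrg2 pif4 against mrg1 mrg2 and 1 to 2 for mrg1 mrg2 against pif4. Counts of listed genes called ranged at 28 °C from 15 to 26 for mrg1 mrg2 against WT, 1 to 4 for pif4 against WT, 12 to 20 for mrg1 mrg2 pif4 against WT, 8 to 16 for mrg1 mrg2 pif4 against mrg1 mrg2, 13 to 20 for mrg1 mrg2 pif4 against pif4 and 14 to 24 for mrg1 mrg2 against pif4, and from 18 to 29 for the pif4 difference in warm change. At 22 °C, leaving out single libraries gave 36 to 46 in mrg1 mrg2 pif4, 33 to 44 in mrg1 mrg2 and 30 to 42 in pif4. The sign of small log2 differences at 28 °C turned when a library was left out. Against WT, AT4G01870 ranged from −0.0191 to 0.53 in mrg1 mrg2 and from −0.25 to 0.29 in pif4, NIT4 from −0.14 to 0.84 in mrg1 mrg2, and in mrg1 mrg2 pif4 CYP81D11 ranged from −0.35 to 0.12 and GSTU24 from −0.21 to 0.25. Between mrg1 mrg2 and pif4, ChlAKR ranged from −1.28 to 1.14, NIT4 from −0.64 to 0.34 and UGT73C1 from −1.89 to 0.79. Between mrg1 mrg2 pif4 and mrg1 mrg2, ChlAKR ranged from −0.9998 to 1.03 and UGT73C1 from −1.05 to 1.21. Between mrg1 mrg2 pif4 and pif4, CYP81D11 ranged from −0.44 to 0.0241, ChlAKR from −1.27 to 1.17, UGT73C1 from −1.33 to 0.38 and UGT74E2 from −0.24 to 0.32. For the departure from additive effects, AT4G01870 ranged from −0.22 to 0.33 and UGT73C1 from −0.30 to 1.96. AT4G01870 in pif4 against WT was −0.000448 with the compared groups alone. The deviations of replicate 2 from replicate 1 had correlations between groups of −0.0098 to 0.0685 over all genes (28 pairs). Among the 28 °C groups they were 0.024 to 0.0685. Counting error is part of these deviations and lowers the correlations, so they cannot settle whether the replicate numbers pair the libraries. With the replicate number as a block, 48, 43 and 42 listed genes were called at 22 °C in mrg1 mrg2 pif4, mrg1 mrg2 and pif4, against 45, 43 and 42 without it, no call of the 7 genes was lost or gained, and GSTU24 in mrg1 mrg2 pif4 against WT at 28 °C was 0.00707 in place of −0.00443. The causes were not tested. UGT73C1 and ChlAKR are limited by depth outside WT at 22 °C.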
